A study of Mus musculus with 6 samples.

Results

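The cytosolic translation initiation and elongation factors were examined in RNA from hand-picked pancreatic islets, clusters of endocrine cells that include the insulin-making beta cells. Members were the genes of the authors' deposited table whose symbol begins with Eif or Eef and a digit, apart from Eif2ak3 and Eif4ebp1, which were left out by rule. This gave 63 of 19940 genes, of which 55 carry an Eif symbol (initiation) and 8 an Eef symbol (elongation). Islets of pregnant C57BL6/J mice at gestational day 14.5 (3 samples) were set against islets of nonpregnant littermates (3 samples). No treatment or transgene is named for either group, and ages are not given in the sources used here. The table holds 1 mean read count per gene and group, so no value per sample and no SD can be given. Each comparison rests on the authors' fold change, log2 ratio (pregnant over nonpregnant) and p-value, and a gene was called when the authors' adjusted p was under 0.05. Islets of 5 animals per group are mentioned in the design, and the labels do not tie animals to samples, so the spread behind these p-values may be technical.

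Translation of an mRNA begins when eIF2 brings the initiator tRNA to the small ribosomal subunit, eIF3 holds that subunit, and the eIF4F complex loads it onto the capped end of the message. Elongation then repeats a cycle in which eEF1A delivers each aminoacyl-tRNA, eEF1B recharges eEF1A with GTP, and eEF2 moves the ribosome along by a codon. In beta cells, which make insulin in bulk, the eIF2 step is known as the point where stress kinases slow translation.

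In pregnant islets 4 of 8 elongation genes passed the test, and 53 of 55 initiation genes did not. By the authors' deposited table Eef1a1, Eef1b2 and Eef2 rose, with folds of 1.33, 1.32 and 1.24, and Eef1a2 fell to 0.72. Among the Eif genes only Eif3h, an eIF3 subunit, and Eif2ak2, the kinase PKR, passed, both as higher. Of all 63 members 6 were called (9.52%), 5 higher and 1 lower, against 11.7% of all genes in the authors' deposited table. The background was 7.57% for genes higher and 4.15% for genes lower in pregnancy. As a whole, then, the members were called about as often as any gene when read level is left aside. By symbol, 4 of 8 elongation members and 2 of 55 initiation members (3.64%) were called. Most members are well expressed, and among genes with at least 1000 mean reads, where 60 of the 63 lie, 6 members were called, against 16.2% of all such genes. At that read level the background was 9.8% for genes higher and 6.43% for genes lower. An unadjusted p under 0.05 by the authors' test was seen for 16 of the 63 members (25.4%), against 22.2% of all genes. With at least 1000 mean reads the share was 26.7% of members and 30.5% of all genes.

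**Figure D1:**
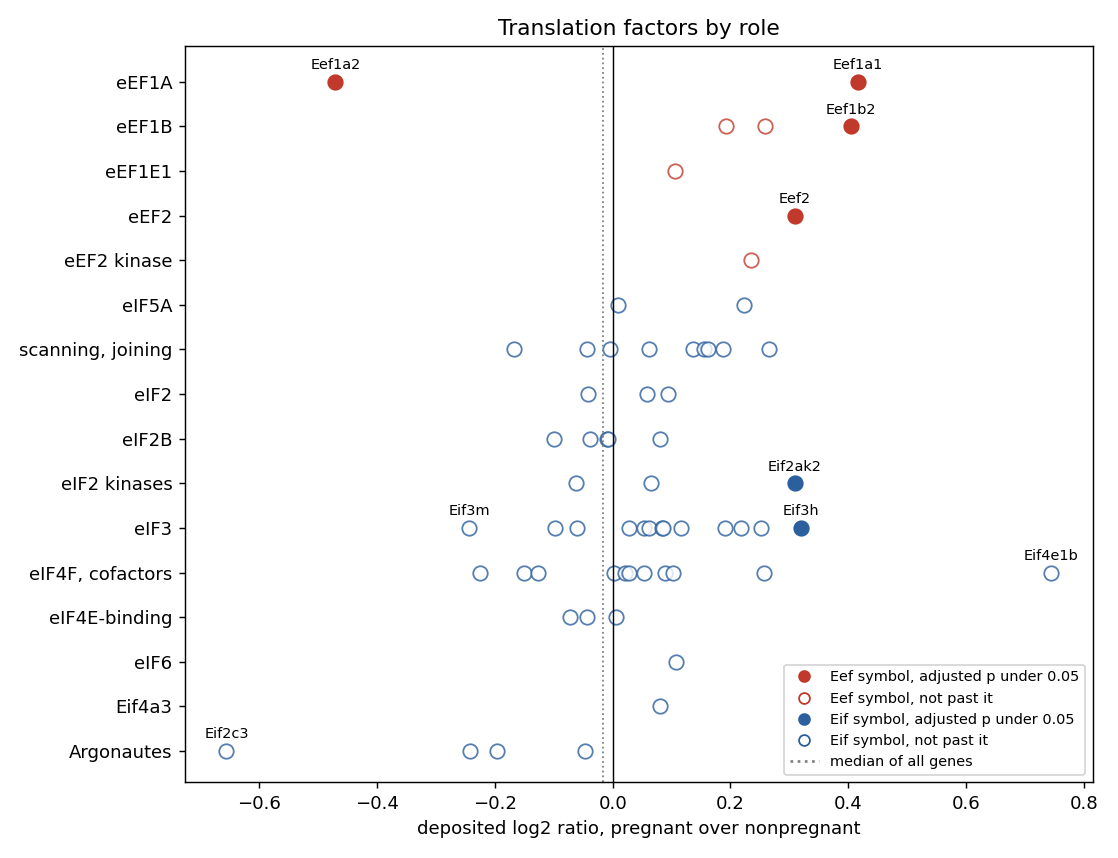
Deposited log2 ratio (pregnant over nonpregnant) of each of the 63 members, in rows by role, with Eef symbols in red and Eif symbols in blue. Filled points passed an adjusted p under 0.05. The 4 filled Eef points lie at 0.42, 0.40, 0.31 and -0.47, and the 2 filled Eif points at 0.32 and 0.31, while eIF2, eIF2B and eIF4F have open points only. The open point farthest to the right is Eif4e1b, with 1 mean read in pregnant and 0 in nonpregnant islets.

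The median log2 ratio was 0.25 for elongation members and 0.05 for initiation members, against -0.02 for all genes in the authors' deposited table. A log2 ratio above 0 was seen in 7 of 8 elongation members (87.5%) and 34 of 55 initiation members (61.8%), compared with 48.1% of all genes. When the means were scaled to total mean reads instead, log2 ratios shifted by a median of -0.09 (genes with at least 100 mean reads). Above 0 were then 7 of 8 elongation and 17 of 55 initiation members, compared with 7082 of all 19940 genes. The medians became 0.16 for elongation members, -0.03 for initiation members and -0.09 for all genes. The position of the initiation genes relative to 0 thus depended on the scaling, while that of the elongation genes did not. The initiation median lay above that of all genes either way. The difference between both sets was not tested, because that needs values per library.

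Eef1a1 (ENSMUSG00000037742), the main form of eEF1A, had a mean of 319750 reads in pregnant islets, against 245593 reads in nonpregnant islets. It rose 1.33-fold (log2 ratio 0.42, adjusted p = 7.89e-04 in the authors' deposited table). By mean reads it was the gene at rank 12 in pregnant and rank 20 in nonpregnant islets, with 0.365% and 0.291% of all mean reads in those groups. The deposited log2 ratios exceed the log2 of the ratio of the printed means by a median of 0.04, which is why the fold is slightly above the quotient of both means. In GRCm38 Eef1a1 spans chromosome 9 from 78478449 to 78489151, minus strand. It is known for many processed pseudogenes, so part of its reads could have been assigned elsewhere.

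Eef1a2 (ENSMUSG00000016349), the form that takes over from Eef1a1 in mature neurons and muscle, went the opposite way. Its mean was 1184 reads in pregnant islets and 1683 reads in nonpregnant islets, a fall to 0.72 (log2 ratio -0.47, adjusted p = 4.01e-03 in the authors' deposited table). It was the 1 member called lower among the 63. Per kilobase of annotated exon, Eef1a1 exceeded Eef1a2 by a factor of 226 in pregnant and 122 in nonpregnant islets. Eef1a2 thus made a small part of eEF1A transcripts in both groups. In whole islets, fewer cells of a type and less RNA per cell cannot be told apart.

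Of the eEF1B complex, which exchanges GDP for GTP on eEF1A, only the catalytic subunit gene Eef1b2 passed. It had 18425 mean reads in pregnant and 14283 in nonpregnant islets, 1.32-fold (log2 ratio 0.40, adjusted p = 3.28e-03 in the authors' deposited table). Its exons overlap exons of Ndufs1 on the opposite strand, and no source used here gives strand use in counting, so its reads are uncertain. The second exchange subunit gene, Eef1d, had 6041 and 5173 mean reads in pregnant and nonpregnant islets (1.2-fold, adjusted p = 0.0944 in the authors' deposited table), and its exons overlap Naprt on the same strand. The scaffold subunit gene, Eef1g, had 26566 mean reads in pregnant islets and 23833 in nonpregnant islets (1.14-fold, adjusted p = 0.251 in the authors' deposited table). Both ratios lay above 1 without passing.

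Eef2 (ENSMUSG00000034994), the translocase, had 135023 mean reads in pregnant islets, against 111530 in nonpregnant islets. It rose 1.24-fold (log2 ratio 0.31, adjusted p = 0.0215 in the authors' deposited table) and stood at rank 31 of all genes by mean reads in pregnant islets and rank 41 in nonpregnant islets. Eef2k, the kinase that inactivates eEF2, had 1574 mean reads in pregnant and 1370 in nonpregnant islets and did not pass (1.18-fold, adjusted p = 0.219 in the authors' deposited table). Eef1e1, which belongs to the multi-tRNA-synthetase complex in spite of its symbol, had 934 and 889 mean reads in pregnant and nonpregnant islets (1.08-fold, adjusted p = 0.903 in the authors' deposited table). Thus Eef1a1, the eEF1A gene with the most reads, and Eef2 were higher. Eef1g, the eEF1B gene with the most reads, was not called, nor were the kinase and the synthetase-complex subunit.

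**Figure D2:**
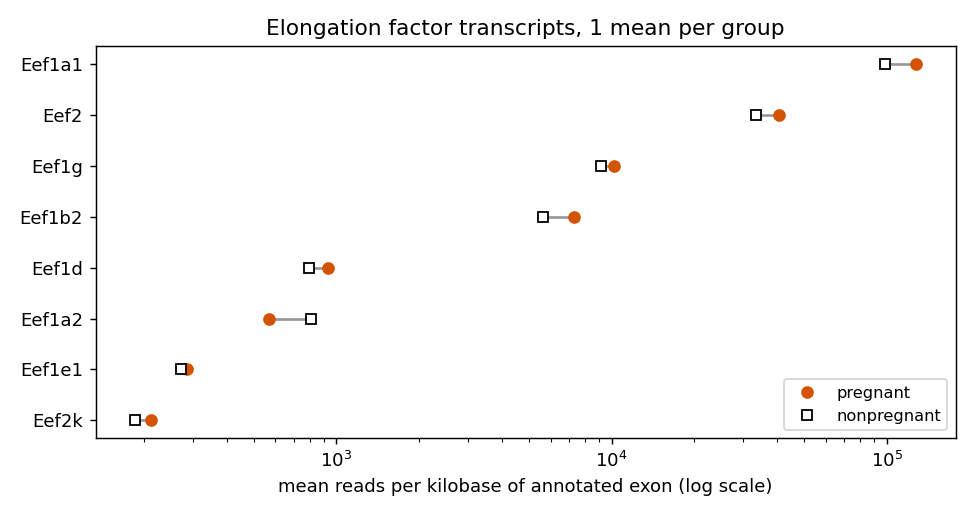
Mean reads per kilobase of annotated exon (log axis) of the 8 Eef genes, with pregnant islets as filled circles and nonpregnant islets as open squares, 1 mean per group. Eef1a1 lies at 128259 in pregnant and 98513 in nonpregnant islets, and Eef1a2 is the one gene whose pregnant value is the lower one.

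Markers of exocrine acinar cells moved in the same comparison. Of 25 listed acinar genes 24 were measured and 23 rose, and their summed mean reads made up 1.7% of all mean reads in pregnant and 0.135% in nonpregnant islets, with 0 of them at 0 reads. The 4 with the smallest p were Try4, Try5, Spink3 and Pnliprp2, at folds of 18.75, 23.37, 12.53 and 19.54 in the authors' deposited table. All 8 listed cell division genes also rose, and the 4 with the smallest p, Bub1, Aurkb, Top2a and Mki67, had folds of 6.51, 6.6, 5.57 and 5.67 in the authors' deposited table. The part of either in the values of the elongation factors was not tested.

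Vertebrate mRNAs of elongation factors and ribosomal proteins are known to begin with a C followed by a run of pyrimidines, through which mTOR signalling controls their translation. Start-site sequence of RefSeq (GRCm38.p6) was available for 50 of the 63 members. The windows of 5 of the 6 called members are shown, and Eif3h, the other one, had no such sequence. Each runs from 60 bases before the annotated start to 30 bases from it onward, 5′ to 3′ on the gene's strand. Capitals mark a C with at least 4 following pyrimidines that starts within 20 bases of the annotated start, the TATA box word TATAAA in the 60 bases before it, or 2 GAAA words with any 2 bases between them, a core of interferon-response elements.
Eef1a1, chr9:78481695-78481784, minus strand: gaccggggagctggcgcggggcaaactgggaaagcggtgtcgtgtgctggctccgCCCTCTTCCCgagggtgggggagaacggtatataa
Eef1a2, chr2:181156986-181157075, minus strand: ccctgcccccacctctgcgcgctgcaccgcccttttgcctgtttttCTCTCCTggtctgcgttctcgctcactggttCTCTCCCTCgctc
Eef1b2, chr1:63176771-63176860, plus strand: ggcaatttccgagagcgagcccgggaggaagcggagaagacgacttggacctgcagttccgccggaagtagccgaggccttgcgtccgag
Eef2, chr10:81176571-81176660, plus strand: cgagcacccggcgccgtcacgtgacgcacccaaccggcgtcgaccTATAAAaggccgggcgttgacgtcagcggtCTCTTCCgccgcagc
Eif2ak2, chr17:78882543-78882632, minus strand: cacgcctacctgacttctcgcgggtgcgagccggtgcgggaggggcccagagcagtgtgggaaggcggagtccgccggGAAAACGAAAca

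In the Eef2 window the pyrimidine run began 15 bases after the annotated start and 30 bases after the first letter of TATAAA. The Eef1a1 run began 5 bases before its annotated start. That window closes with the TATA-like letters tatataa, which lie after the annotated start. The Eef1a1 gene span also reaches 78489151 on the minus strand, upstream of the window. Whether this run begins the Eef1a1 mRNA was not tested. The Eef1a2 window, of the gene that fell, held pyrimidine runs beginning 14 bases before and 17 bases after its start, so a run was not limited to genes that rose, and the Eef1b2 window held none. Searched on the sense strand, such a run was present in 22 of 50 members (44.0%) and in 7545 of 14270 genes of the table with a window (52.9%), a share near the background. The median log2 ratio was 0.06 for members with a run and 0.06 for members without one. TATAAA, searched on the sense strand, was found in 1 of 50 members, Eef2, and in 2.75% of all windows. The spaced pair of GAAA words, searched on both strands of the 300-base window, was found in 4 of 50 members (8.0%) and in 3.81% of all windows. Besides Eif2ak2 these were Eif2s1, Eif2s3x and Eif3a, none of which was called. A match describes letters in a window and is not a mapped site.

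The kinases that phosphorylate eIF2 respond to different signals. Eif2ak2 encodes PKR, which is activated by double-stranded RNA and induced by interferon. Its mean was 2755 reads in pregnant and 2278 reads in nonpregnant islets, a 1.24-fold rise in the authors' deposited table that passed narrowly (log2 ratio 0.31, adjusted p = 0.0481). Eif2ak1, the haem-regulated kinase, was at 1.05-fold and Eif2ak4, the amino acid sensor GCN2, at 0.96 (adjusted p = 0.872 and 0.887 in the authors' deposited table). One kinase of this group was therefore called, close to the threshold. Exons of Eif2ak2 overlap the annotated genes n-R5s29 and Gm26637 on the opposite strand.

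The target of these kinases, eIF2, did not pass in any subunit. Eif2s1, the alpha subunit that is phosphorylated, had 3948 and 4162 mean reads in pregnant and nonpregnant islets (ratio 0.97). Eif2s2, the beta subunit, had 9310 in pregnant and 8940 in nonpregnant islets (1.07), and Eif2s3x, the gamma subunit, 14765 in pregnant and 14514 in nonpregnant islets (1.04), all in the authors' deposited table. The 5 subunits of eIF2B, which reloads eIF2 with GTP, lay between log2 ratios of -0.10 and 0.08 with 0 called, and 0 at an unadjusted p under 0.05 by the authors' test. Eif2b5, the catalytic subunit gene and the one of the 5 with the most reads, had 3944 mean reads in pregnant and 4150 in nonpregnant islets (0.97, adjusted p = 0.971 in the authors' deposited table). Of all role groups with at least 5 members, eIF2B covered the narrowest range.

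Factors of scanning, start-codon choice and subunit joining had 0 called of 9, with 1 (11.1%) at an unadjusted p under 0.05 by the authors' test, against 22.2% of all genes. That gene was Eif2a, a factor of alternative initiation distinct from eIF2, with 4562 mean reads in pregnant and 3893 in nonpregnant islets (1.2-fold, adjusted p = 0.0927 in the authors' deposited table). Eif1, which guards the fidelity of start-codon choice and had the most reads of the 9, had 31779 and 33551 mean reads in pregnant and nonpregnant islets (0.97, adjusted p = 0.943 in the authors' deposited table). Eif5, which makes eIF2 hydrolyse its GTP, was at 1.04-fold and Eif5b, the subunit-joining GTPase, at 1.12-fold without passing in the authors' deposited table. The paralogs Eif1a and Eif1ax lay on either side of 1, with 0.89 for Eif1a and 1.11 for Eif1ax (adjusted p = 0.41 and 0.47 in the authors' deposited table). Eif1 and Eif1b, like Eif1a and Eif1ax, resemble each other closely, and how the counting treated shared reads is unknown.

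Of the 13 measured subunits of eIF3, the largest initiation factor, 1 was called (7.69%, against 11.7% of all genes). Eif3h (ENSMUSG00000022312) had 8643 mean reads in pregnant islets, against 7103 in nonpregnant islets. It rose 1.25-fold (log2 ratio 0.32, adjusted p = 0.0236 in the authors' deposited table). In GRCm38 the gene spans chromosome 15 from 51786558 to 51865523, minus strand. Eif3f, the other subunit with the same type of protease-like fold, was at 1.19-fold and Eif3k at 1.16-fold without passing (adjusted p = 0.103 and 0.202 in the authors' deposited table). Above 0 on the log2 scale were 10 of the 13 subunits, and the median was 0.08. With scaling to total mean reads 5 of the 13 were, compared with 7082 of all 19940 genes, so that majority rests on the scaling.

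The subunits that stood below 1 were Eif3m, Eif3b and Eif3a. Eif3m had 7888 mean reads in pregnant and 9567 in nonpregnant islets (0.84, adjusted p = 0.259 in the authors' deposited table), and its exons overlap Ccdc73 on the opposite strand. Eif3a, the scaffold of the complex and the subunit with the most reads, had 28355 and 30266 mean reads in pregnant and nonpregnant islets (0.96, adjusted p = 0.878 in the authors' deposited table). Summed over the 13 subunits, mean reads were 120186 in pregnant and 119789 in nonpregnant islets. Per kilobase of annotated exon, levels ran from 267 (Eif3j, a loosely bound subunit) to 5362 (Eif3h) in pregnant islets and from 264 (Eif3j) to 5042 (Eif3c) in nonpregnant islets. Values per kilobase thus differed widely among subunits of 1 complex within each group. They depend on the length of all annotated exons, 1612 bases for Eif3h and 5830 for Eif3j. By mean reads Eif3h, with 8643 in pregnant islets, lay below Eif3a. How far the transcripts themselves differ in level was not tested.

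**Figure D3:**
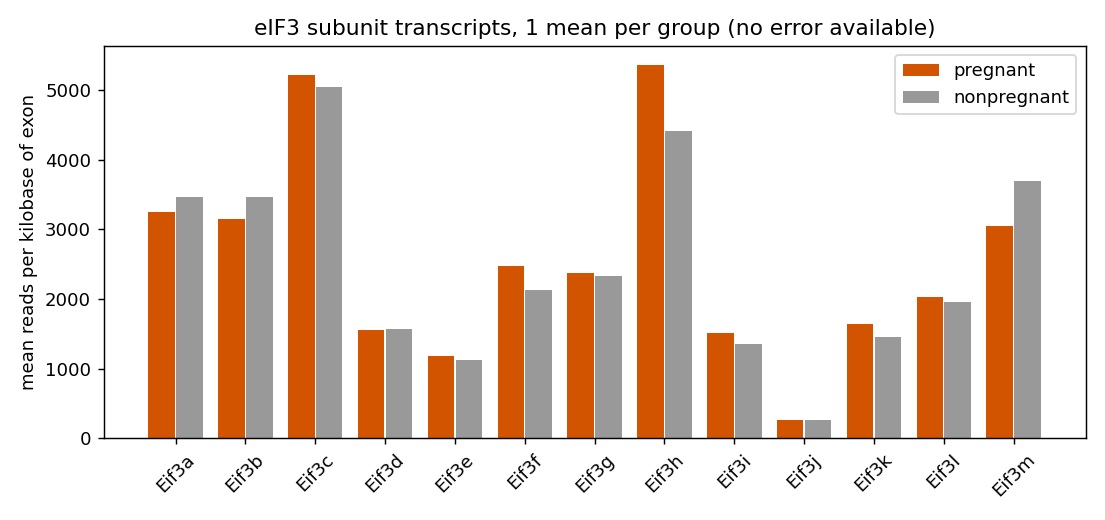
Mean reads per kilobase of annotated exon for the 13 eIF3 subunits, with pregnant islets as orange bars and nonpregnant islets as grey bars, 1 mean per group without error. Eif3h is at 5362 in pregnant and 4406 in nonpregnant islets, and Eif3m at 3046 in pregnant and 3694 in nonpregnant islets.

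The eIF4F group, which recognises the cap and unwinds the leader, had 0 called of 11, and 2 (18.2%) at an unadjusted p under 0.05 by the authors' test, against 22.2% of all genes. Those were the helicase cofactor Eif4b, with 20504 mean reads in pregnant and 17589 in nonpregnant islets (1.19-fold, adjusted p = 0.0826 in the authors' deposited table), and the cap-binding paralog Eif4e3, with 3010 in pregnant and 3605 in nonpregnant islets (0.86, adjusted p = 0.193 in the authors' deposited table). Eif4e, the main cap-binding protein, had 8056 mean reads in pregnant and 9158 in nonpregnant islets (0.9, adjusted p = 0.534 in the authors' deposited table). Eif4g2, a scaffold without the eIF4E-binding part, had the most reads of all Eif genes, with 74564 in pregnant and 83378 in nonpregnant islets (0.92, adjusted p = 0.609 in the authors' deposited table).

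The classical scaffold gene Eif4g1 had 43889 and 44093 mean reads in pregnant and nonpregnant islets, and the helicase gene Eif4a2 had 65914 in pregnant and 66640 in nonpregnant islets. By the authors' deposited table Eif4g1 was at 1.02 and Eif4a2 at 1.01. Per kilobase of exon, the ratio of Eif4a1 to Eif4a2 was 0.45 in pregnant and 0.455 in nonpregnant islets, so Eif4a2 was the more abundant helicase transcript in both. Eif4e1b, an oocyte form, was barely detected, with 1 mean read in pregnant and 0 in nonpregnant islets, and no fold is given for it. Of the eIF4E-binding proteins, which block eIF4F assembly, Eif4ebp2 had 3692 and 3974 mean reads in pregnant and nonpregnant islets (0.95). Eif4ebp3 was low at 14 mean reads in pregnant and 14 in nonpregnant islets in the authors' deposited table. Eif4enif1, which carries eIF4E into the nucleus, was at 0.97 in the authors' deposited table. None of these 3 was called or had an unadjusted p under 0.05.

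**Figure D4:**
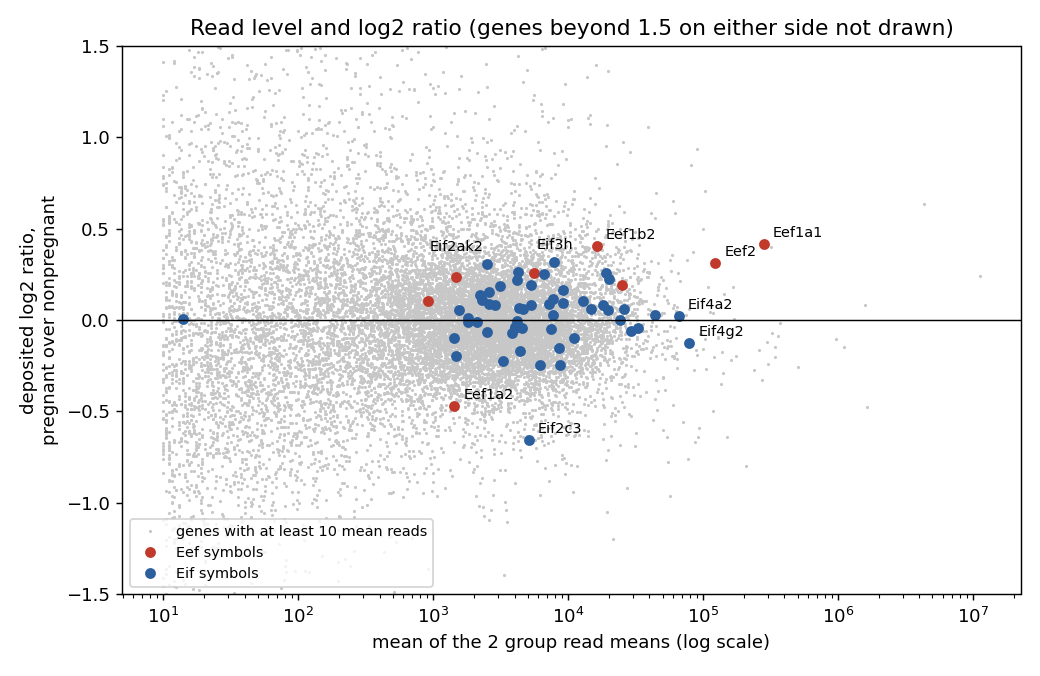
Deposited log2 ratio against the mean of both group read means (log axis) for genes with at least 10 mean reads in grey, Eef genes in red and Eif genes in blue; Eif4e1b falls below 10 reads and is not drawn. Eef1a1 and Eef2 lie at log2 ratios of 0.42 and 0.31, and the most abundant Eif genes, Eif4g2 and Eif4a2, at -0.13 and 0.02.

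Several members carry an Eif symbol but act elsewhere. Eif5a, the hypusine-containing protein that helps ribosomes through difficult peptide bonds during elongation, had 21271 mean reads in pregnant and 18682 in nonpregnant islets (1.17-fold, adjusted p = 0.156 in the authors' deposited table). Its paralog Eif5a2 had 1794 and 1825 mean reads in pregnant and nonpregnant islets (1.01). Eif6, which keeps large ribosomal subunits from joining too early, was at 1.08-fold, and the exon-junction helicase Eif4a3 at 1.06-fold, both in the authors' deposited table without passing.

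Eif2c1 to Eif2c4 are older symbols of the Argonaute genes of small-RNA silencing, and all 4 had a ratio below 1. Eif2c3 had 3921 mean reads in pregnant and 6334 in nonpregnant islets, the lowest ratio of the 63 members, 0.63, yet did not pass (log2 ratio -0.66, adjusted p = 0.0706 in the authors' deposited table). Eif2c2, the Argonaute that cleaves its targets, had 5589 and 6766 mean reads in pregnant and nonpregnant islets (0.85, adjusted p = 0.129 in the authors' deposited table). Eif2c1, which had the most reads of the 4, was at 0.97 with 7222 and 7647 mean reads in pregnant and nonpregnant islets, and Eif2c4 was at 0.87 in the authors' deposited table. A ratio as far from 1 as that of Eif2c3 thus had a larger p than the smaller change of Eef2.

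Set against each other by summed mean reads, the 8 elongation members had 509497 reads in pregnant and 404354 in nonpregnant islets, a ratio of 1.26. The 55 initiation members had 590637 reads in pregnant and 599705 in nonpregnant islets, a ratio of 0.985. Elongation over initiation was therefore 0.863 in pregnant and 0.674 in nonpregnant islets, 1.28 times as high in pregnancy. Eef1a1 alone held 62.8% of the elongation reads in pregnant and 60.7% in nonpregnant islets. Without Eef1a1, elongation over initiation was 0.321 in pregnant and 0.265 in nonpregnant islets, 1.21 times as high. Most of the elongation reads left were those of Eef2, 135023 of 189747 in pregnant and 111530 of 158761 in nonpregnant islets. These sums come from 1 mean per group, and their spread between samples is unknown.

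Other genes of protein synthesis were compared by lists. The cytosolic ribosomal protein genes, taken by symbol, had 56 higher and 0 lower of 82 (68.3% called), against 7.57% higher and 4.15% lower among all genes. Their median log2 ratio was 0.39, and 72 of them (87.8%) had an unadjusted p under 0.05 by the authors' test, against 22.2% of all genes. Of 10 genes that bind or repress mRNA ends, 1 rose and 0 fell, where 11.7% of all genes were called. The gene that rose was Pabpc1, the poly(A)-binding protein. It had 25341 mean reads in pregnant and 19688 in nonpregnant islets (1.32-fold, adjusted p = 1.73e-03 in the authors' deposited table). An unadjusted p under 0.05 by the authors' test was seen for 5 of the 10, against 22.2% of all genes. Among these Paip2b, Pdcd4 and Pabpc4 were at 1.21-fold, 1.2-fold and 1.21-fold without passing (adjusted p = 0.056, 0.0728 and 0.0775 in the authors' deposited table). Eif4ebp1, which blocks eIF4E and was kept out of the members, was at 1.63-fold with an adjusted p of 0.154 in the authors' deposited table. Among 9 termination and recycling genes 0 were called, with 1 at an unadjusted p under 0.05 by the authors' test. The release factor genes Etf1 and Gspt1 stood at 0.91 for Etf1 and 0.99 for Gspt1 in the authors' deposited table.

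The mitochondrial translation factors, which serve a separate ribosome, had 0 higher and 1 lower of 11 (9.09% called, against 11.7% of all genes). Gfm2, a mitochondrial ribosome recycling factor, fell to 0.79 (adjusted p = 0.0161 in the authors' deposited table). Their median log2 ratio was -0.15, and 1 of the 11 was above 0, Mtrf1, which was not called. Tufm, the mitochondrial counterpart of eEF1A, was at 0.9 in the authors' deposited table without passing.

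Of 15 genes of mTOR, S6 kinase and Mnk signalling, 2 rose and 1 fell. The called share was 11.7% of all genes and 16.2% of genes with at least 1000 mean reads, a level that all 15 reach. An unadjusted p under 0.05 by the authors' test was seen for 4 of the 15 (26.7%). That share lay between the 22.2% of all genes and the 30.5% of genes at that read level. Rps6, the ribosomal S6 kinase substrate, rose 1.29-fold, and Deptor, an mTOR inhibitor, rose 1.27-fold (adjusted p = 5.27e-03 and 0.0196 in the authors' deposited table). Ddit4, a stress-induced mTOR inhibitor, fell to 0.65 (adjusted p = 6.05e-03 in the authors' deposited table). Rps6 is also among the ribosomal protein genes. Of 10 genes listed around eIF2 phosphorylation and the response to it, 0 rose and 1 fell, where 11.7% of all genes were called. An unadjusted p under 0.05 by the authors' test was seen for 2 of the 10, against 22.2% of all genes. The list also holds a kinase and regulators of the kinases, and the gene that fell is such a regulator. Impact, an inhibitor of GCN2 activation, had 6197 mean reads in pregnant and 8935 in nonpregnant islets and fell to 0.71 (adjusted p = 7.28e-05 in the authors' deposited table). Atf4, the transcription factor made when eIF2 is phosphorylated, and Eif2ak3, the kinase PERK, stood at 1.01 for Atf4 and 0.98 for Eif2ak3 (adjusted p = 1.0 and 0.98 in the authors' deposited table). The 7 measured genes for hypusine and diphthamide, the modifications of eIF5A and eEF2, had 0 called and 1 at an unadjusted p under 0.05 by the authors' test. The 7 genes of polyamine synthesis, which supplies the hypusine precursor, had 0 called and 0 at that level.

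The islet hormone genes took 23.6% of mean reads in pregnant and 21.3% in nonpregnant islets, and 0 of the 6 listed hormone genes were at 0 reads. Of these 6 genes 1 rose and 0 fell (16.7% called, against 11.7% of all genes). Ins1, an insulin gene, had 5230668 mean reads in pregnant and 3449821 in nonpregnant islets (1.55-fold, adjusted p = 1.61e-08 in the authors' deposited table). The gene for glucagon, Gcg, did not pass (0.72, adjusted p = 0.0772 in the authors' deposited table). Of the markers of other cells, 1 of 8 ductal, 1 of 9 macrophage, 1 of 8 stellate and fibroblast and 0 of 8 endothelial genes were higher, and 0 in any of these lists were lower. In that order 12.5%, 11.1%, 12.5% and 0.0% were called, against 11.7% of all genes. The called ones were Muc1 (ductal) at 2.64-fold, Lyz2 (macrophage) at 1.32-fold and Rgs5 (stellate) at 1.23-fold in the authors' deposited table. An unadjusted p under 0.05 by the authors' test was seen for 3 ductal (37.5%), 2 macrophage (22.2%) and 1 stellate and fibroblast gene (12.5%). No endothelial gene had one, against 22.2% of all genes. Median log2 ratios were 0.30 for ductal, 0.18 for macrophage, -0.12 for stellate and fibroblast and -0.01 for endothelial genes. All mean reads summed to 87654449 in the pregnant and 84493872 in the nonpregnant group. Depth per library is unknown. Among the 63 members, 16 have exons that overlap exons on the opposite strand, 2 of them called, and GENCODE names 10 pseudogenes after Eif or Eef genes. That count takes only names made of such a symbol with the ending -ps, so pseudogenes named otherwise are not in it.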

How the data were processed

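Islet RNA was sequenced after a TruSeq transcriptome preparation, per the labels' protocols. TopHat2 2.0.12, TopHat, Bowtie, HTSeq 0.5.3p3 and build GRCm38 are named in the submitters' processing notes. The authors deposited rounded mean reads per gene and group, a fold change (linear ratio), its log2 and a p-value with an adjusted p, per the file headers. Their test and any scaling are not given in the sources used here.

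The table has 19963 lines for 19940 genes. The 21 genes on more than 1 line had identical values and were counted once. A recomputed Benjamini-Hochberg adjustment differed from the deposited one by at most 0.00203 and gave the same 2337 calls, and the function was tested on simulated data. Exon lengths and coordinates came from GENCODE M21, which held all 63 members, and start-site sequence from RefSeq GRCm38.p6. Group means allow no count model, leave-one-out or set test. Python 3.11.15, pandas 2.3.3, numpy 2.4.6 and matplotlib 3.10.9 were used.

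Members and lists were chosen with earlier results of these data known. Named were all called members, all Eef members, the member with the most reads in each role group, members under 10 reads, and in each list the called genes, at most 4 by smallest p. Other named genes were chosen after their values were seen, and so were the start-site motifs and their windows. Alternatives changed the threshold, the genes adjusted over, scaling, pseudocount and membership.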

Additional observations from a re-analysis of the deposited data

How the results depend on the processing

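With an adjusted p under 0.01, 0 initiation members were higher, and with 0.1 there were 4 higher and 1 lower (Eif4b and Eif2a joining Eif3h and Eif2ak2, and Eif2c3 lower). Without members of another role, 1 initiation member was higher. Adjustment over genes with at least 100 mean reads called 1 initiation member lower. That gene was Eif2c3, whose adjusted p was then 0.0498, against 0.0706 in the authors' deposited table and 0.0559 over genes with at least 10 mean reads. The median log2 ratio of initiation members was -0.034 with scaling to total mean reads, and that of elongation members 0.159, against -0.089 for all genes. Under the other scalings, pseudocounts and memberships the median of initiation members was 0.01 to 0.064 and that of elongation members 0.211 to 0.284, and all 6 called members kept their direction under each scaling and pseudocount. Elongation members numbered 2 to 4 higher and 1 lower under each alternative, and elongation over initiation was 1.21 to 1.28 times as high in pregnant islets. Without the Argonaute genes, an alternative chosen after seeing the data, it was 1.27 times as high. The following backgrounds were also chosen after seeing the data: the called share was 16.2% of genes with at least 1000 mean reads, and 11.6% of genes outside the acinar and cell division lists. No paired analysis was possible because the table holds 1 mean per group, and for the same reason no sample could be left out. The depth and spread of single libraries are unknown, which limits every value here.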
